A study of Mus musculus with 6 samples.

Results

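J-domain proteins, the chaperonin and prefoldin are the proteins that hand unfolded chains to HSP70 or fold them inside a closed ring, and their mRNAs were measured here in mouse tumours by poly(A) RNA sequencing. The members are the rows of the gene table named Dnaja, Dnajb or Dnajc with a number (Dnajb1 and Dnajb9 were set apart by the rule), the chaperonin subunit genes Tcp1 and Cct2 to Cct8, the prefoldin genes Pfdn with a number, and Hspd1, Hspe1 and Hspa9. Such a name is carried by 57 of 28368 genes, of which 56 reached a summed count of 15 over the 6 libraries; Dnajb3, with 4 counts in all, did not. They are 40 J-protein genes, 8 chaperonin genes, 5 prefoldin genes and 3 genes of mitochondrial chaperones. Tumours of the treated group (3 libraries) received a 12 h therapy called MS-DF-MS, and tumours of the control group (3 libraries) were left untreated. By its title the series concerns implanted depots with a STING agonist, released first, and an apoptosis inducer. Drugs, strain, age and tumour line are not named in the labels, and no group with an empty depot is among these samples. Whether the libraries come from different mice is not stated, hence p-values speak to variation among the 6 libraries, part of which may be technical. Values of single libraries are given in the order of replicates 1, 2 and 3, and the numbers were not taken to match treated to control libraries.

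J-proteins carry a J domain that docks on HSP70 and triggers its ATP hydrolysis, which closes HSP70 on a client protein; other parts of each J-protein choose the client and the place in the cell. The chaperonin TRiC, also called CCT, is a double ring whose subunits are products of different genes, and it folds actin and tubulin among other clients, some of which prefoldin delivers to it. In mitochondria the chaperonin is HSP60 (Hspd1) with its lid HSP10 (Hspe1), and mortalin (Hspa9) is the HSP70. Some of these genes are known targets of HSF1, the transcription factor of the heat shock response, which binds repeats of the letters GAA in alternating orientation.

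Libraries held 57017043 to 66634551 counts, and 54 of the 56 members passed the filter on low counts. Treated 3 stood apart on the first principal component of log2 CPM, at 72.9 against -37.9 to 13.3 in the other 5 libraries. Pigment cell markers were abundant in every library, with a summed level of the 7 genes of 21636 to 23503 CPM in treated and 21010.0 to 23200.0 CPM in control libraries. Neutrophil markers summed to 3.85 to 46.3 CPM in treated and 1.58 to 3.44 CPM in control libraries, endothelial markers to 137 to 148 CPM in treated and 86.7 to 109 CPM in control libraries, and T cell markers to 0.843 to 2.65 CPM in treated and 2.75 to 3.39 CPM in control libraries. In treated 1, S100a9 at 26.3 and S100a8 at 12.7 CPM were the largest parts of the neutrophil sum. Both were higher in every treated library than in every control. Csf3r and Cxcr2 overlapped between groups, and none of these 4 genes passed the threshold used below. Of 6 endothelial markers Pecam1, Robo4 and Cdh5 passed the threshold used below, all higher, where 1.36% of all genes did, while Kdr, Tek and Vwf did not and overlapped between groups, Vwf with a negative log2 difference of -0.49. Adipocyte markers summed to 37.5 to 78.6 CPM in treated and 24.4 to 26.4 CPM in control libraries, with no overlap, and skeletal muscle markers to 2.91 to 103 CPM in treated and 22.0 to 52.4 CPM in control libraries, highest in treated 1 and lowest in treated 3. Nearly all of the adipocyte sum was Fabp4, at 78.1, 44.6 and 37.5 CPM in treated and 23.8, 25.0 and 26.4 CPM in control libraries. Adipoq, at most 0.535 CPM, overlapped between groups, and Plin1 was below the filter on low counts. Macrophage and fibroblast markers overlapped between groups. The 3 keratin genes of skin summed to 74.0 CPM in treated 1 and to at most 0.140 CPM in the other libraries. The part of these cell types in the results was not tested, and in whole tumours fewer cells of a type and less RNA per cell cannot be told apart.

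None of the 54 members tested passed the threshold of a Benjamini-Hochberg adjusted p of 0.05 in edgeR's quasi-likelihood test, in either direction, where 1.61% of the 18049 genes tested did (1.36% higher, 0.249% lower). At an unadjusted p under 0.05 there were 5 members higher and 4 lower in treated tumours, or 16.7%, beside 16.0% of all genes (9.12% higher, 6.90% lower). The higher ones were Dnaja4, Dnaja1, Dnaja3, Dnajc14 and Hspe1, and the lower ones Dnajc10, Dnajb11, Tcp1 and Dnajc8. The 3 treated libraries lay above the 3 controls for 6 members (11.1%, all genes 12.0%) and below them for 9 (16.7%, all genes 11.2%). Both directions together made 27.8% of the members and 23.3% of all genes. The median log2 fold change of treated over control, called the log2 difference here, was -0.03 over the members and -0.003 over all genes. By DESeq2 the members called were Dnaja1 (adjusted p = 0.00201), Dnaja4 (0.00391) and Dnaja3 (0.023), all higher in treated tumours, while that tool called 6.21% of all genes. By limma-voom no member was called, where 1.46% of all genes were. With sample quality weights Dnaja1 (adjusted p = 0.0293) and Dnaja3 (0.0497) were called beside 4.39% of all genes. Without treated 3, the library that stood apart, edgeR called Dnaja1 and Dnaja4, both higher, where 308 of 18762 genes tested rose and 39 fell. Without any other single library it called no member.

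Most members were measured closely enough to bound the difference. The 95% interval of the log2 fold change, taken gene by gene and not adjusted, lay between a 1.5-fold decrease and a 1.5-fold increase for 47 of the 54 members, and for 50.6% of all genes tested. The exceptions were Dnaja4, Dnaja1, Dnajb4, Dnajc28, Dnajc24, Dnajc6 and Dnajc12. Estimates of at least 1.5-fold were found for 3 members, Dnaja4, Dnajc28 and Dnajc6, beside 15.2% of all genes, and 38 members lay within 0.2 of 0 on the log2 scale.

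**Figure D1:**
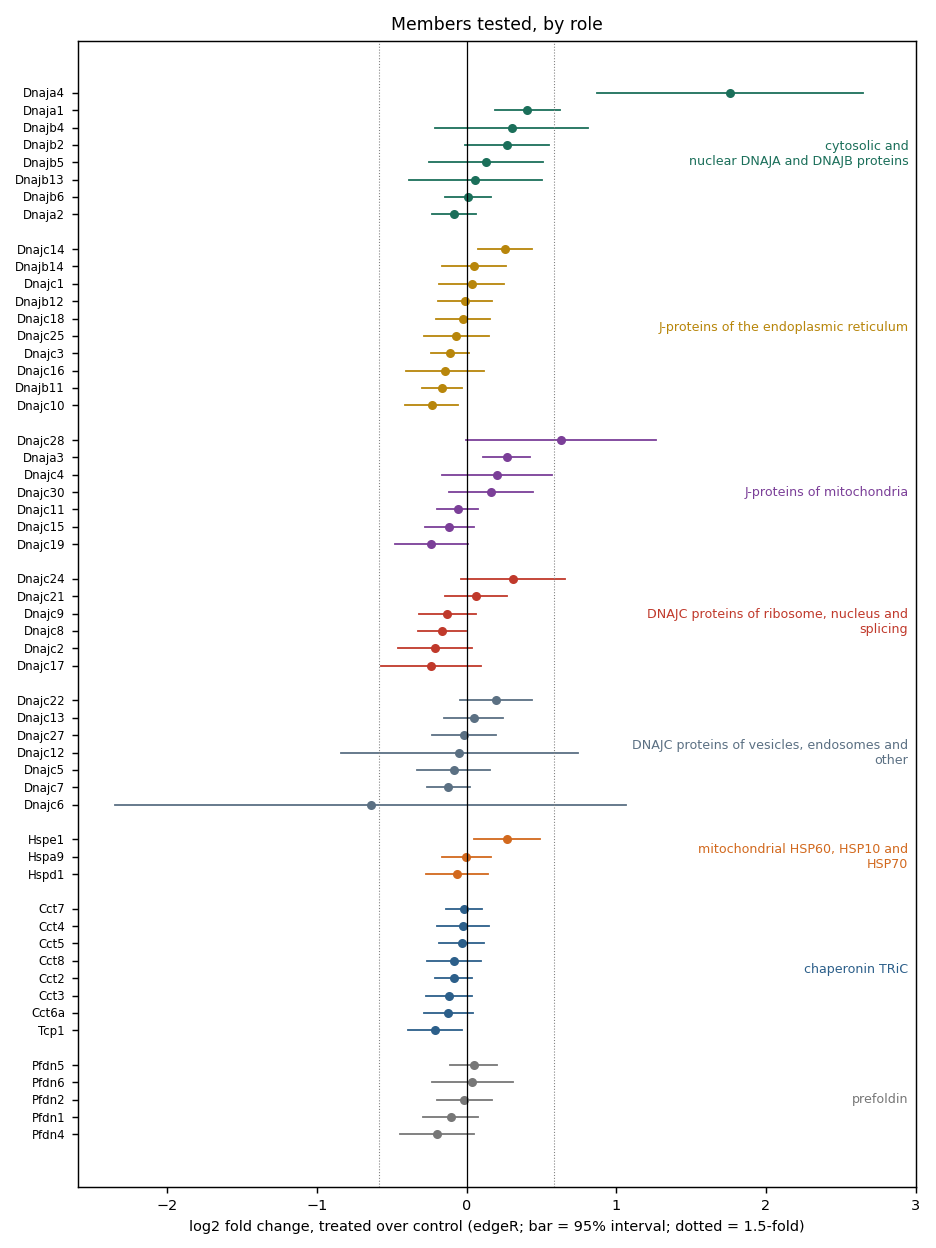
The log2 fold change of treated over control tumours (horizontal axis) is shown for the 54 tested members, grouped by role (vertical axis), with points for edgeR estimates, bars for 95% intervals and dotted lines at 1.5-fold. Most points sit within 0.2 of 0, Dnaja4 lies farthest to the right at 1.76, and the wide bar of Dnajc6 belongs to a gene with 8 to 73 counts per library.

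Among the cytosolic J-proteins, the closely related DNAJA genes had unequal estimates. Dnaja1, a general partner of cytosolic HSP70 in folding and protein import, stood at 442, 444 and 351 CPM in treated and 301, 309.6 and 323 CPM in control tumours. All 3 treated libraries were above all controls, with treated 3 nearest to them (log2 difference 0.41 ± 0.09 SE, n = 3, adjusted p = 0.0929 by edgeR, 95% interval 0.19 to 0.62). Without treated 3 the log2 fold change was 0.51 and the edgeR adjusted p 0.00932; over the 6 leave-outs the adjusted p ran from 0.00932 to 0.33. Dnaja4, a scarce relative of it, was measured at 3.07, 2.07 and 1.204 CPM in treated and 0.541, 0.668 and 0.667 CPM in control tumours. Its treated libraries spread widely and again lay above every control, treated 3 lowest (log2 difference 1.76 ± 0.38 SE, n = 3, adjusted p = 0.0786 by edgeR, 95% interval 0.87 to 2.64). Without treated 3 Dnaja4 passed the threshold (log2 difference 2.04, adjusted p = 0.0266 by edgeR, range over the leave-outs 0.0266 to 0.282). Dnaja4 rested on 80 to 201 counts per treated library and 35 to 43 per control, against 18424 to 28865 per library for Dnaja1, and its span overlaps Wdr61 on the other strand (log2 difference -0.06). Dnaja2, another of these cytosolic partners, showed no such gap, at 155, 166 and 162 CPM in treated and 162, 170.5 and 179.6 CPM in control tumours (log2 difference -0.08 ± 0.06 SE, n = 3, adjusted p = 0.585 by edgeR).

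The ratio of Dnaja1 to Dnaja2 in the deposited FPKM, a level per length, was 0.984, 0.923 and 0.746 in treated 1, 2 and 3 and 0.642, 0.626 and 0.620 in controls 1, 2 and 3. It was thus higher in every treated library than in every control (exact permutation test, two-sided, p = 0.1, the smallest that 3 against 3 libraries can give; 5 ratios were computed, chosen after the values were seen, and each gave the same p and an adjusted p of 0.1). The other cytosolic members were Dnajb6, which keeps aggregation-prone proteins soluble (log2 difference 0.01 ± 0.07 SE, n = 3, adjusted p = 0.97 by edgeR), Dnajb2, a J-protein that binds ubiquitin chains (log2 difference 0.27 ± 0.12 SE, n = 3, adjusted p = 0.328 by edgeR), and Dnajb4 (log2 difference 0.30 ± 0.22 SE, n = 3, adjusted p = 0.572 by edgeR). Dnajb5 and the cilium protein Dnajb13 had log2 differences of 0.13 and 0.06. Dnajb7 had 0 to 13 counts per library and Dnajb8 had 0 to 9, and both were below the filter. Of the 8 tested genes of this class 7 had a positive and 1 a negative estimate, with a median of 0.20.

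**Figure D2:**
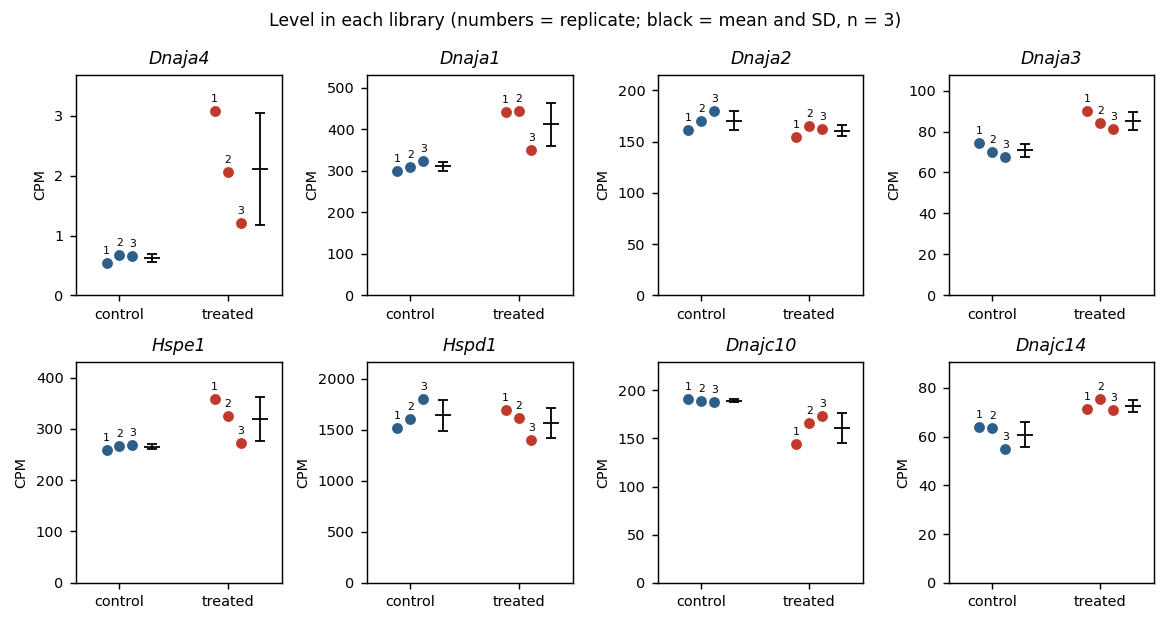
Level in CPM (vertical axes, from 0) in each control and treated library for 8 members, with replicate numbers beside the points and the mean ± SD (n = 3) in black. Dnaja4, Dnaja1, Dnaja3, Hspe1 and Dnajc14 have all treated points above the controls, Dnajc10 has them below, and Dnaja2 and Hspd1 overlap.

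Promoters of these genes were read for the letters of the heat shock element, since heat shock genes outside the member list rose in the same libraries. RefSeq windows from 250 bases before to 50 after a start site (build GRCm38.p6) were found for 46 of the 56 members. Stretches of 150 bases up to the start site are printed for Dnaja4, Dnaja1 and Hspe1, whose treated libraries all lay above the controls, and for Dnajb6, whose groups overlapped. All are on the plus strand, 5′ to 3′, and capitals mark matches to GAANNTTC or TTCNNGAA, each of which reads the same on the other strand. Only windows with a match were printed. No match was found for Dnaja3, Dnajc28 and Dnajc14, whose treated libraries also all lay above the controls, though not every member had a window.
Dnaja4, chr9:54699409-54699558: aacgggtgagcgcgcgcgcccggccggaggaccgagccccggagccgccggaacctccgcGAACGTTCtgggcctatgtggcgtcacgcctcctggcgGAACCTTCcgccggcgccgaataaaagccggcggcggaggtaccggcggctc
Dnaja1, chr4:40722318-40722467: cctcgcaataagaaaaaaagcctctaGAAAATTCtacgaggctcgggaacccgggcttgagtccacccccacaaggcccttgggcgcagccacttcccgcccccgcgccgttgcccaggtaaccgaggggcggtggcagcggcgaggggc
Hspe1, chr1:55087998-55088147: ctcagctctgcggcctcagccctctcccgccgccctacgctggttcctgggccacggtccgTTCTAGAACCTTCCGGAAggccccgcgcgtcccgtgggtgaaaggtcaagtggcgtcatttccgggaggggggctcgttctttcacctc
Dnajb6, chr5:29735748-29735897: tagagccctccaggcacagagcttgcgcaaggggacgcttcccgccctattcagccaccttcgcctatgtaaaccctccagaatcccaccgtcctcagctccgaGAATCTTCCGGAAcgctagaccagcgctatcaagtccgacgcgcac

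The longer form with 3 units, GAANNTTCNNGAA or its reverse complement TTCNNGAANNTTC, was found for 3 of 46 members with a window, Hspe1, Hspd1 and Dnajb6, and for 0.662% of 27025 genes with a window in the table. Hspe1 and Hspd1 are not separate cases, because they lie head to head and 285 bases of their windows are the same DNA. The short form, which every long match contains, was found for 11 of 46 members (23.9%) and 4587 of 27025 genes (17.0%). Besides those printed and Hspd1, the members with it were Dnajb4, Dnajc10, Dnajc27, Cct2, Cct5 and Cct6a. Dnajb6, with the long form, had a log2 difference of 0.01, and Dnaja3, with neither form in its window, had 0.27. Of the HSF1 targets listed further below 11 had a window, of which 2 held the long form and 7 the short form. Listed targets can thus lack a match, and whether a match bears on the levels was not tested. A match describes the letters only.

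In mitochondria the lid gene and the ring gene of the chaperonin had estimates of opposite sign, neither past the threshold. Hspe1 (ENSMUSG00000073676, chromosome 1 from 55088132 to 55091307, plus strand) encodes HSP10, and Hspd1 (ENSMUSG00000025980, chromosome 1 from 55077835 to 55088243, minus strand) encodes HSP60; these are spans of whole genes as the table gives them. Hspe1 stood at 359, 325 and 273 CPM in treated and 259, 266 and 269 CPM in control tumours. Every treated library was above every control, but treated 3 by little (log2 difference 0.27 ± 0.10 SE, n = 3, adjusted p = 0.23 by edgeR, 95% interval 0.05 to 0.49). Hspd1 stood at 1689, 1614 and 1403 CPM in treated and 1513, 1607 and 1805 CPM in control tumours, with overlapping groups (log2 difference -0.07 ± 0.09 SE, n = 3, adjusted p = 0.78 by edgeR, 95% interval -0.27 to 0.14). The ratio of Hspe1 to Hspd1 in FPKM was 0.381, 0.361 and 0.349 in treated 1, 2 and 3 and 0.307, 0.297 and 0.267 in controls 1, 2 and 3, without overlap (exact permutation test, two-sided, p = 0.1, the smallest possible). This ratio too was chosen after the values were seen. The spans of these genes overlap at the shared start, and the sources used here do not say whether counting used strand, so reads there cannot be assigned with certainty. Hspe1, Hspd1, Hspa9, Dnajc19 and Dnajb6 also have pseudogene copies in the table, and reads shared with those are uncertain too. Hspa9, the mitochondrial HSP70, had 661, 749 and 642 CPM in treated and 666, 672 and 717 CPM in control libraries (log2 difference -0.002 ± 0.07 SE, n = 3, adjusted p = 0.994 by edgeR, 95% interval -0.17 to 0.16).

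Dnaja3, also called Tid1, is the J-protein that serves Hspa9 in the matrix. It stood at 89.8, 84.1 and 81.3 CPM in treated and 74.3, 70.2 and 67.7 CPM in control tumours. The groups did not overlap and the spread within each was small (log2 difference 0.27 ± 0.07 SE, n = 3, adjusted p = 0.117 by edgeR, 95% interval 0.11 to 0.42, leave-outs 0.13 to 0.387). Its span on chromosome 16 holds Vasn on the same strand and overlaps Coro7 on the other, with log2 differences of 0.01 and -0.19. Dnajc28 stood at 3.95, 2.84 and 2.74 CPM in treated and 2.66, 1.89 and 1.596 CPM in control tumours, with the lowest treated library just above the highest control (log2 difference 0.63 ± 0.27 SE, n = 3, adjusted p = 0.313 by edgeR). The import motor genes Dnajc19 and Dnajc15, whose products stimulate Hspa9 at the inner membrane, had negative estimates, with log2 differences of -0.24 ± 0.11 and -0.12 ± 0.07 SE (adjusted p = 0.324 and 0.481 by edgeR); for Dnajc19 the groups did not overlap. Dnajc30, Dnajc4 and Dnajc11, the last a partner of the cristae-organising complex, had 0.16, 0.20 and -0.06.

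Of the 10 J-protein genes of the endoplasmic reticulum 7 had negative and 3 positive estimates, with a median of -0.05, and none passed the threshold. Dnajc10, a reductase that opens disulfides of proteins bound for degradation, stood at 144, 166 and 173 CPM in treated and 191, 188 and 188 CPM in control tumours. The controls lay close together and all treated libraries were below them, treated 1 lowest (log2 difference -0.24 ± 0.08 SE, n = 3, adjusted p = 0.197 by edgeR). Dnajb11, which binds unfolded chains with the lumenal HSP70 BiP, stood at 171, 168 and 161 CPM in treated and 192, 179.9 and 190.5 CPM in control tumours, again with no overlap (log2 difference -0.17 ± 0.06 SE, n = 3, adjusted p = 0.226 by edgeR). Dnajc3, another BiP partner, had a log2 difference of -0.11 ± 0.06 SE (adjusted p = 0.366 by edgeR) with treated libraries below controls. Dnajb9, a lumenal J-protein that the rule leaves out, had a positive estimate, at 24.2, 35.8 and 27.9 CPM in treated and 32.1, 27.9 and 18.5 CPM in control tumours, and its groups overlapped (log2 difference 0.16 ± 0.22 SE, n = 3, adjusted p = 0.777 by edgeR). Dnajc14, a membrane protein of this organelle, had the opposite sign, at 71.3, 75.5 and 70.9 CPM in treated and 63.8, 63.4 and 54.7 CPM in control tumours (log2 difference 0.26 ± 0.08 SE, n = 3, adjusted p = 0.17 by edgeR). Its span overlaps that of Sarnp on the same strand, which had a log2 difference of -0.99 ± 0.38 (adjusted p = 0.252 by edgeR), so the split of reads between them is uncertain. The membrane J-proteins Dnajb12 and Dnajb14, which help clear misfolded membrane proteins, had -0.01 and 0.05, and Dnajc1, Dnajc16, Dnajc18 and Dnajc25 ran from -0.14 to 0.03. The summed FPKM of the 10 genes was 151 ± 4.35 in treated and 165 ± 3.98 in control tumours (SD, n = 3). Hspa5, the gene of BiP, had -0.23 (adjusted p = 0.0867 by edgeR). Of 12 genes listed for BiP and other folding factors of this organelle none passed the threshold, with a median of -0.12 and 10 negative estimates. The list also holds an HSP90, lectin chaperones and disulfide isomerases, so its values do not describe the HSP70 system alone. At an unadjusted p under 0.05 the list had 1 higher and 4 lower genes of 12, beside 9.12% and 6.90% of all genes, and DESeq2, which called 6.21% of all genes, called Hspa5 and Hsp90b1 lower.

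**Figure D3:**
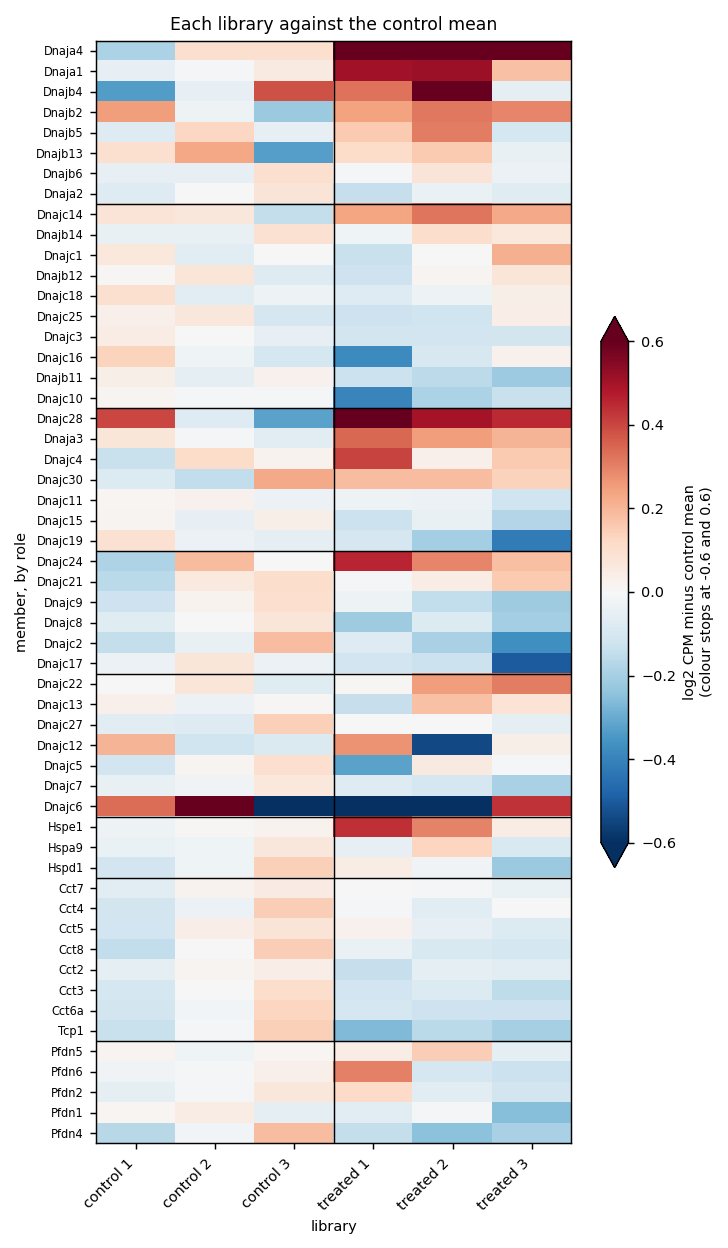
Log2 CPM of each library (columns) minus the mean of the 3 controls, for the 54 tested members grouped by role (rows); red is higher, blue lower, and colours stop at -0.6 and 0.6. Dnaja1 and Hspe1 are paler in treated 3 than in treated 1, and most chaperonin genes are red in control 3 and blue in control 1.

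J-proteins of the ribosome and nucleus showed small differences in both directions. Dnajc8, a spliceosome protein, stood at 73.5, 80.4 and 74.1 CPM in treated and 81.0, 85.2 and 89.6 CPM in control tumours, each treated library below each control (log2 difference -0.17 ± 0.07 SE, n = 3, adjusted p = 0.294 by edgeR). Dnajc24, needed to make the diphthamide residue of an elongation factor, stood at 11.2, 9.94 and 9.20 CPM in treated and 7.14, 9.24 and 8.09 CPM in control tumours, with overlap between groups (log2 difference 0.31 ± 0.15 SE, n = 3, adjusted p = 0.371 by edgeR). Dnajc2, which sits at the ribosome exit tunnel, had a log2 difference of -0.21 ± 0.11 SE (adjusted p = 0.377 by edgeR) and Dnajc17, a splicing factor, -0.24 ± 0.14 (0.472). Dnajc9, a histone chaperone, and Dnajc21, of ribosome assembly, had -0.13 and 0.06.

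The next class held J-proteins of vesicles, of endosomes and of other roles. Dnajc7, which binds HSP70 and HSP90, stood at 208, 205 and 192 CPM in treated and 213, 216 and 229 CPM in control tumours, without overlap (log2 difference -0.12 ± 0.06 SE, n = 3, adjusted p = 0.377 by edgeR). Dnajc5, the cysteine-string protein of secretory vesicles and the most abundant per length in its class, stood at 181, 235 and 224 CPM in treated and 209, 229 and 242 CPM in control tumours, with treated 1 lowest of all (log2 difference -0.09 ± 0.10 SE, n = 3, adjusted p = 0.755 by edgeR). Dnajc22 stood at 23.7, 28.1 and 29.3 CPM in treated and 23.7, 24.8 and 22.4 CPM in control tumours (log2 difference 0.19 ± 0.10 SE, n = 3, adjusted p = 0.416 by edgeR). Dnajc13, of endosome sorting, and Dnajc27 had 0.05 and -0.02. Dnajc6 (auxilin), which uncoats clathrin vesicles mainly in neurons, and Dnajc12, a partner of aromatic amino acid hydroxylases, were scarce, at mean levels of 0.0752 and 0.173 FPKM. Their 95% intervals on the log2 scale, -2.35 to 1.06 and -0.84 to 0.74, bound little.

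All 8 subunit genes of the cytosolic chaperonin had negative estimates, none past the threshold, from -0.21 for Tcp1 to -0.02 for Cct7 with a median of -0.09. Tcp1, the alpha subunit, stood at 482, 518 and 505 CPM in treated and 528, 575 and 640.2 CPM in control tumours, each treated library below each control (log2 difference -0.21 ± 0.08 SE, n = 3, adjusted p = 0.238 by edgeR). Tcp1 overlaps Acat3 on the other strand (log2 difference -1.03, adjusted p = 0.0742 by edgeR). Cct2 stood at 468, 493 and 491 CPM in treated and 494, 521 and 529 CPM in control tumours, again without overlap but with treated 2 and control 1 nearly level (log2 difference -0.09 ± 0.05 SE, n = 3, adjusted p = 0.483 by edgeR). For the other 6 genes the groups overlapped. Cct3 had 357, 365 and 348 CPM in treated and 359.8, 388 and 416 CPM in control tumours (log2 difference -0.12 ± 0.07 SE, n = 3, adjusted p = 0.429 by edgeR). Cct6a had 372, 368 and 368 CPM in treated and 371, 396 and 439 CPM in control tumours (log2 difference -0.12 ± 0.07 SE, n = 3, adjusted p = 0.447 by edgeR). Cct8 had 494, 476 and 472 CPM in treated and 458, 507 and 562 CPM in control tumours (log2 difference -0.08 ± 0.08 SE, n = 3, adjusted p = 0.672 by edgeR). These 3 subunit genes had estimates close to that of Cct2. Cct4 had 335, 323 and 338 CPM in treated and 312, 329 and 374 CPM in control tumours (log2 difference -0.03 ± 0.08 SE, n = 3, adjusted p = 0.904 by edgeR). Cct5 had 541, 514 and 502 CPM in treated and 491, 545 and 559.6 CPM in control tumours (log2 difference -0.04 ± 0.07 SE, n = 3, adjusted p = 0.851 by edgeR). Cct7 had 857, 854 and 837 CPM in treated and 819, 871 and 889.9 CPM in control tumours (log2 difference -0.02 ± 0.05 SE, n = 3, adjusted p = 0.911 by edgeR). In each of these 6 genes control 1 had the lowest and control 3 the highest control level, and the controls spread more widely than the treated libraries. Without control 3 the estimates of Cct4, Cct5 and Cct7 turned positive, to 0.056, 0.0085 and 0.013. Relative to the mean of the controls, the median of the 8 genes came to -0.07, -0.07 and -0.09 in treated 1, 2 and 3, and -0.11 and 0.12 in controls 1 and 3, so the controls differed among themselves by more than the groups. The 95% intervals of all 8 lay within 1.5-fold.

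Each ring is built of 1 copy of every subunit, but their mRNAs were not equal per length. Over the 6 libraries Cct2 had the highest and Cct3 the lowest mean FPKM, a 3.34-fold range. As a share of the summed FPKM of the ring, Cct2 took 19.1 ± 0.690% in control and 19.0 ± 0.636% in treated tumours (SD, n = 3), and Cct5 18.3 ± 0.359 and 18.9 ± 0.628%, so these neighbours did not differ beyond their spread. Cct8 followed with 15.6 and 15.6%, then Cct7, and Tcp1 with Cct6a close together. The share of Tcp1 was 10.95 ± 0.314% in control and 10.02 ± 0.383% in treated tumours. The shares of Tcp1, Cct3 and Cct6a were lower in every treated library than in every control and that of Cct7 was higher (12.1 ± 0.356% in control, 12.6 ± 0.0751% in treated tumours), while the other 4 overlapped. For Cct3 the gap was narrow, with 5.749% in treated 2 and 5.759% in control 2. Shares of the same sum are tied, since a lower share of a subunit raises those of others. They were not tested and have no background over all genes. Summed over the ring, FPKM was 878 ± 12.5 in treated and 934 ± 65.5 in control tumours.

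**Figure D4:**
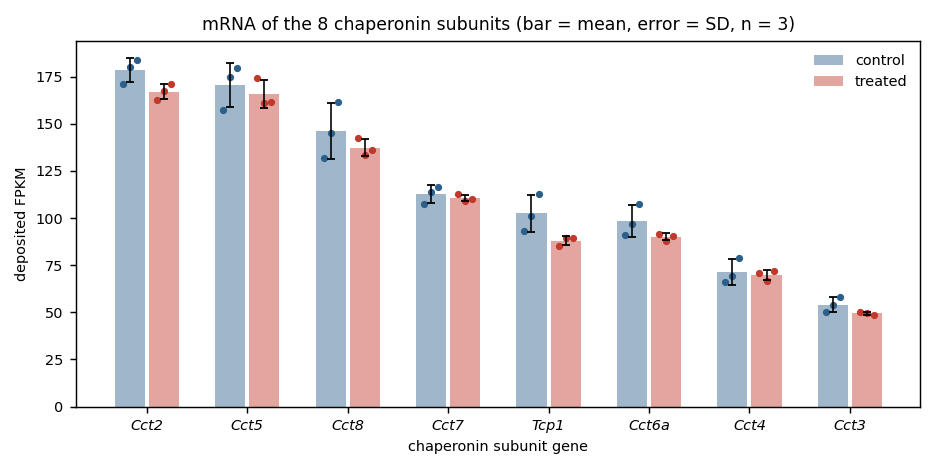
Deposited FPKM (vertical axis, from 0) of the 8 chaperonin subunit genes in order of mean level, with bars for group means, error bars for the SD (n = 3) and points for libraries. Cct2 and Cct5 are highest and Cct3 lowest, and the points of the groups overlap for most subunits.

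Prefoldin, the jaw-shaped complex that passes nascent actin and tubulin to the chaperonin, had no gene past the threshold. No gene separated the groups, and all 5 intervals lay within 1.5-fold. Pfdn5 was the most abundant per length, at 139.8, 149.9 and 130.2 CPM in treated and 137, 133 and 137 CPM in control tumours (log2 difference 0.05 ± 0.07 SE, n = 3, adjusted p = 0.8 by edgeR). Pfdn4 stood at 23.7, 22.0 and 22.8 CPM in treated and 23.2, 25.8 and 29.7 CPM in control tumours (log2 difference -0.20 ± 0.11 SE, n = 3, adjusted p = 0.416 by edgeR), and Pfdn1 at 55.5, 57.8 and 48.8 CPM in treated and 58.6, 60.0 and 56.0 CPM in control tumours (log2 difference -0.11 ± 0.08 SE, n = 3, adjusted p = 0.574 by edgeR). Pfdn2 and Pfdn6 had log2 differences of -0.02 and 0.04. The remaining subunit gene, Vbp1, lies outside the name rule, at -0.09 (adjusted p = 0.652 by edgeR).

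Partner genes were put in lists with earlier results of these data known, and some of those of the inducible heat shock response did pass the threshold. Of 14 HSF1 targets 6 rose and none fell, against 1.36% of all genes rising, with a list median of 0.42. They were Hspa1a, Hspa1b, Dnajb1, Hspb1, Hsph1 and Hspa8, and the 5 other than Dnajb1 are chaperones of the HSP70, HSP110 and small HSP families. Dnajb1, the inducible cytosolic J-protein that the rule leaves out, stood at 118, 148 and 90.7 CPM in treated and 44.4, 43.5 and 49.7 CPM in control tumours (log2 difference 1.37 ± 0.16 SE, n = 3, adjusted p = 0.00637 by edgeR). Hspa1b, an inducible HSP70 gene whose near-identical copy Hspa1a makes their read split uncertain, had 136, 244 and 80.4 CPM in treated and 11.2, 14.9 and 17.9 CPM in control libraries (log2 difference 3.39 ± 0.40 SE, n = 3, adjusted p = 0.00571 by edgeR). Treated 3 was the lowest treated library for both, as it was for Dnaja1, Dnaja4, Dnaja3 and Hspe1. It was also the lowest for members with negative estimates, among them Hspd1, Hspa9, Dnajb11 and Dnajc7. For others, among them Dnajc10, Dnajc16 and Dnajc22, treated 3 was the highest treated library. The order was thus found in members of either sign, and how many members had it was not counted. Hspa8, the constitutive HSP70 that Dnaja1 serves, rose 1.31-fold (adjusted p = 0.0313 by edgeR), and Dnaja1 had an estimate of 1.32-fold that missed the threshold. Of all 87 partner genes tested these 6 rose and none fell. Without control 1 or without control 3 the genes that rose were 3, Hspa1a, Hspa1b and Dnajb1, and without control 2 only Hspa1a did. Without treated 1 Hspa8 and Hsph1 lost the call, as they did with the replicate number as a block, and without treated 2 Hspb1 and Hsph1 did. Without treated 3 Hspa8 lost it and Hspa4l and Cryab gained it. Hspa8 thus passed in 1 of the 6 leave-outs, that of treated 2. None of 18 exchange factors and HSP90 co-chaperones, 14 mitochondrial import and protease genes and 13 chaperonin and prefoldin partners passed, with medians of 0.02, -0.03 and -0.06. At an unadjusted p under 0.05 each of these lists had 1 gene, and DESeq2 called Bag3 of the first list higher and no other. Of 4 HSP90 genes none passed in edgeR, with a median of 0.04 and 1 of them, Hsp90b1, below an unadjusted p of 0.05.

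Per length, the most abundant member was Hspd1, at a mean of 538 FPKM over the 6 libraries, followed by Hspe1 (175), Cct2 (173) and Cct5 (168), which lay within their spread of each other. Of the J-proteins Dnaja2 had the highest mean, at 47.7 ± 1.22 against 50.8 ± 2.69 FPKM (SD, n = 3) in treated against control tumours. Dnajb11 was next at 45.5 ± 1.45 against 51.3 ± 1.81 FPKM (SD, n = 3), and then Dnaja1 at 42.1 ± 5.13 against 32.0 ± 1.16 FPKM (SD, n = 3). In control tumours Dnaja1 was below both, and in treated tumours its range of 36.2 to 45.6 FPKM met that of Dnajb11, from 44.4 to 47.1. Dnajb7, Dnajb8, Dnajc6, Dnajc12, Dnaja4 and Dnajc28 were below 1 FPKM on average.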

How the data were processed

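Poly(A) RNA of 6 tumour libraries was sequenced as strand-marked paired reads, per the labels' protocols. Per the submitters' processing notes fastp, StringTie and edgeR were used, in roles that are not stated; the aligner, build, annotation and strand setting were not given in the sources used here. The authors deposited whole-number counts and FPKM per gene in 1 table, per the file headers. FPKM kept a constant ratio to the counts within 1% for 99.55% or more of 11724 genes, also in the control 2 column whose header has a suffix. Gene spans match GENCODE M21 (GRCm38) exactly for 44 of 56 members. Counts were fitted in R 4.3.3 with edgeR 4.0.16 (filterByExpr, minimum count 10 and total 15; TMM; glmQLFit and glmQLFTest on group; two-sided; Benjamini-Hochberg over 18049 genes; threshold 0.05). Levels are CPM scaled by TMM, and FPKM as deposited where genes are compared. Intervals use the SE, the log2 fold change over the square root of F. Alternatives used limma 3.58.1 and DESeq2 1.42.0, other factors and filters, a replicate block and leave-outs. The fit was tested on simulated data. A chi-square per gene of 18.4 to 92.7 left no pair of libraries within sampling noise. Members with their role classes, partner lists and tests were chosen with earlier results of these data known. Values in each library are given for members past the threshold, the 2 smallest p and the highest FPKM of each role class, the 8 chaperonin subunits, Hspd1, Hspe1 and Hspa9; partner genes named were up to 3 per list by smallest p, and Hspa8, Hspb1, Hspa4l, Cryab, Dnajb9, Actb, Actg1, Vbp1, Wdr61, Sarnp, Acat3, Vasn and Coro7 were chosen after their values were seen.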

Additional observations from a re-analysis of the deposited data

How the results depend on the processing

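No member was called lower in any of the 14 alternatives, and members called higher numbered 0 except with DESeq2 (3), limma-voom with sample quality weights (2) and without treated 3 (2); over the leave-outs the count was 0 to 2. Members with treated libraries above controls numbered 7 to 10 over the leave-outs and those below 10 to 18, since fewer libraries overlap less often. The share of all genes was not taken for the leave-outs, so these counts cannot be set against a background. Over all genes 754 rose and 367 fell with DESeq2, 601 and 191 with quality weights, and 94 to 308 and 3 to 39 over the leave-outs. Of the partner genes 1 to 7 rose over the leave-outs and none fell; falls numbered 1 with upper-quartile factors and with a stricter filter (both Hsp90b1), 6 with DESeq2 and 4 with quality weights. Of 378 alternative log2 fold changes of the 27 members named with library values, 358 kept direction and side of the threshold, 7 passed it and 13, in 7 members with estimates near 0, changed sign. Hspa9 turned to 0.0053 without a filter, 0.001 with a stricter one, 0.038 with quality weights and -0.068 to 0.042 over the leave-outs. Leave-outs also turned Dnajc5 (-0.16 to 0.019), Pfdn5 (-0.0011 to 0.097), Hspd1 (-0.12 to 0.014), Cct4 (-0.076 to 0.056), Cct5 (-0.083 to 0.0085) and Cct7 (-0.045 to 0.013). With the replicate number as a block 123 genes rose, 14 fell, no member was called and 4 partner genes rose, without Hspa8 and Hsph1. Deviations of same-numbered libraries correlated at -0.09, -0.05 and -0.17, and no library correlated best with its own number. These values gave no sign of pairing by number, which the labels do not state. Beyond what is stated here, the cause of these differences was not tested. Low counts limit what can be said of Dnajb7, Dnajb8, Dnajc6, Dnajc12 and Dnaja4.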

Other observations

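Actin and tubulin are the best known clients of the chaperonin, and none of their genes passed the threshold in edgeR. Of 11 actin and tubulin genes 10 had negative log2 fold changes, with a median of -0.20 beside -0.09 for the 8 subunits and -0.003 for all genes. Tuba1b, an abundant alpha-tubulin gene, stood at 1498, 1571 and 1489.9 CPM in treated and 1673, 1774 and 1789 CPM in control tumours (-0.20 ± 0.05 SE, edgeR adjusted p = 0.112). Tubb4b, a beta-tubulin gene, had -0.26 ± 0.07 SE, edgeR adjusted p = 0.121, and Tuba1c -0.25 ± 0.07 SE, edgeR adjusted p = 0.163. The actin genes Actb and Actg1 had log2 differences of 0.07 and -0.07, with overlapping groups. DESeq2 called Tuba1b, Tubb4b and Tuba1c as lower, 3 of the 11, and 6.21% of all genes in either direction. Tubulin genes share long similar stretches, so their read split is uncertain. In edgeR the same 3, all lower, had an unadjusted p under 0.05, where 16.0% of all genes did in either direction and 6.90% as lower. The difference between these genes and the subunits was not tested.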
